A study of Mus musculus with 24 samples.

Results

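The regions described here are stretches of chromatin in female mouse thigh muscle that entered the H3K27ac peak lists late after weekly prednisone. They were selected on the deposited peak lists themselves. A region was taken from the autosomal peaks of the female day 6 list when it shared no base with any peak of the female vehicle or female day 4 list and shared at least 1 bp with a female day 8 peak. Of 121551 autosomal day 6 peaks, 21953 met the rule and are called late gains (18.1%). Among the remaining day 6 peaks, 3 sets served for comparison. There were 64066 gains with no day 8 overlap (called day 6 only gains), 17452 peaks already listed at day 4 and again at day 8 but not in vehicle (day 4 gains kept), and 12799 peaks shared with vehicle.

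H3K27ac is acetylation of lysine on the tail of histone H3, and it marks promoters and enhancers that are in use. It is laid down by the acetyltransferases p300 and CBP and removed by histone deacetylases. Prednisone is converted in the body to prednisolone, which binds the glucocorticoid receptor, a nuclear receptor that recruits such acetyltransferases to DNA. In muscle fibers the best known binders of active enhancers are MEF2 factors and myogenic E-box proteins.

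The study treated male and female C57BL/6 mice (C57BL/6J in the study's methods), 10 weeks old at the start, with vehicle or with prednisone at 1 mg/kg given intraperitoneally in 5 weekly injections. Quadriceps were taken 4, 6 or 8 days after the fifth injection, muscle fibers were freed with collagenase and filtered, and H3K27ac was measured by ChIP sequencing. Every group comprised 2 H3K27ac libraries but 1 deposited peak list, 8 lists in all. How the pair of libraries was combined is not given in the sources used here. Without a replicate error no test between groups could be made, and the 95% intervals given here cover counting error only. The question asked of these data was how long chromatin changes outlast the drug and how they differ between the sexes.

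The female day 6 list stood apart from the others. It held 47.3% of its tags (aligned reads) in peaks, against 7.87% in vehicle, 11.9% on day 4 and 25.9% on day 8. Depth recovered from the normalized tags was 30.6 M tags at day 6, 27.5 M in vehicle, 49.0 M at day 4 and 39.7 M at day 8, where M stands for a factor of 10 to the power 6. The lowest score that the caller accepted, per 10 M tags, was 3.59 on day 6, against 3.63, 4.90 and 4.03 for vehicle, day 4 and day 8. A region missing from the vehicle or day 4 list was not accepted there by the caller, which also required a ratio to input. Its level there is not given by the lists. Of the late gains, 7190 (32.8%, interval 32.1 to 33.4%) had a day 6 score at or above the lowest accepted in both earlier lists, against 33830 (27.8%) of all autosomal day 6 peaks. When every female list was held to its 37614 highest-scoring peaks, 5978 late gains were found (15.9% of the day 6 peaks kept). Whether the longer day 6 list or the treatment placed a region among the late gains cannot be told apart in this design. Myofiber identity was checked on the promoters of 30 sarcomere and Z-disc genes. A peak held the promoter of 18 genes in vehicle and of 23, 26 and 24 genes on days 4, 6 and 8. Over all protein-coding genes the shares in the same lists were 25.0%, 52.0%, 68.0% and 60.8%, which also rose up to day 6. Among 68 marker genes of other cell types the counts were 9, 30, 48 and 47. How pure the fibers were was not tested.

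Sequence windows of 4 late gains are shown because each stands for a feature described further on, and each is the highest-scoring late gain outside annotated UTRs that has the feature. The sequences are the plus strand of mm10 (RefSeq GRCm38.p6), written 5′ to 3′. In the B4galt5 and Creb3l1 windows the capitals mark the match to the MEF2 consensus and to the full glucocorticoid response element (GRE). In the Zfp2 and Vmp1 windows the capitals mark CpG dinucleotides.
B4galt5 intron, chr2:167336695-167336844: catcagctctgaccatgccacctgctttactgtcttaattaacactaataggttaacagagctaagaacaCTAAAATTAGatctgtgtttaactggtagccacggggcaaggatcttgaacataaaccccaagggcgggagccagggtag
Creb3l1 intron, chr2:92017598-92017752: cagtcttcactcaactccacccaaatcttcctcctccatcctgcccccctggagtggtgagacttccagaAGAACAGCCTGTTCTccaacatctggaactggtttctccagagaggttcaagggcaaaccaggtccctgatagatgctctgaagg
Zfp2 promoter, chr11:50916366-50916565: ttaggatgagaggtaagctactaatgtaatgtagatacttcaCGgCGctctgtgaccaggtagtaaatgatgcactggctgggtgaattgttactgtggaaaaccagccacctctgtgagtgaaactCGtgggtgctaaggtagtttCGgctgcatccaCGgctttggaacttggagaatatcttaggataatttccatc
Vmp1 intron, chr11:86595930-86596129: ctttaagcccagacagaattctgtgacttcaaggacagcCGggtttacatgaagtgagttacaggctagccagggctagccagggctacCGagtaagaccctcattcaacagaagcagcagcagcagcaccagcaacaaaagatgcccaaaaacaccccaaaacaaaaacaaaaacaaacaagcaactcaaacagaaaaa

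The B4galt5 window, in a galactosyltransferase gene 12.2 kb after its start, came from a late gain of 626 bp with 24.5 normalized tags at day 6 and 17.1 in its day 8 partner. The Creb3l1 window, in the gene of a transcription factor held in the endoplasmic reticulum, came from a late gain with 33.0 normalized tags at day 6 and 9.57 at day 8. Neither of these 2 regions overlapped a peak in any of the 4 male lists. The Zfp2 window lay within a late gain with its center at -289 bp from the start of a zinc finger gene, held 5 CpGs in 200 bases, and was also listed in male vehicle. The Vmp1 window, in the gene of an endoplasmic reticulum protein needed for autophagy, held 2 CpGs in 200 bases and lay in a region found in all 4 male lists.

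Late gains were modest in level at day 6 beside the peaks that were already listed earlier. Normalized tags, the number of tags in a peak per 10 M tags, ranged from 3.59 to 255.4 with a median of 16.0, and 80% of the regions lay between 7.18 and 45.1. The median late gain held 49 tags at day 6, was 818 bp wide and had 4.87 times the input tags. Day 6 only gains were lower and narrower, with a median of 9.14 normalized tags and 500 bp. Day 4 gains kept had a median of 43.1 normalized tags and 1630 bp, and peaks shared with vehicle had 101.6 and 2169 bp. All autosomal day 6 peaks had medians of 12.4 normalized tags and 649 bp, below those of late gains. Late gains thus lay between the day 6 only gains and the peaks that were already listed earlier. These values come from the same lists as the rule and are given as a description.

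**Figure D1:**
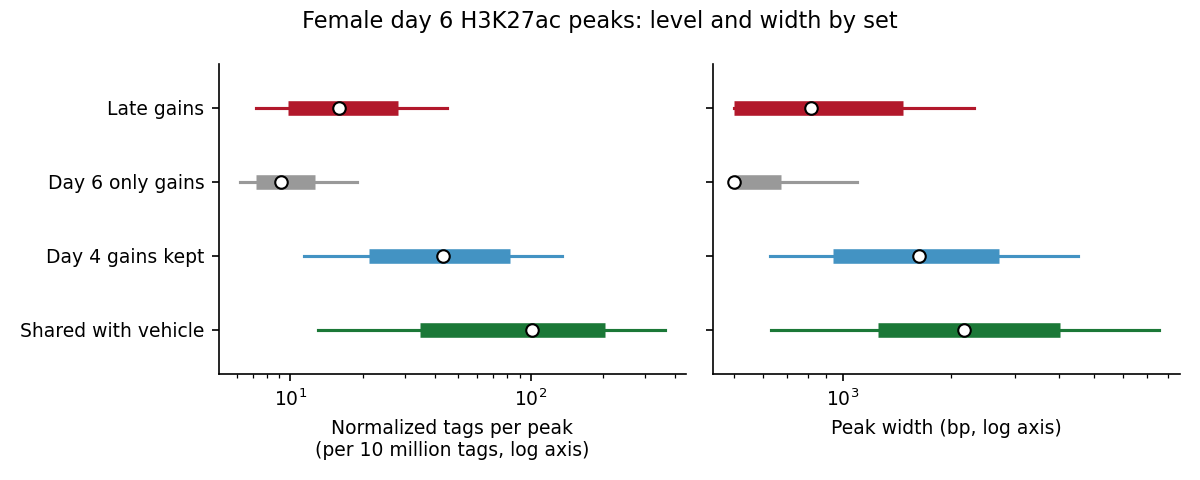
Normalized tags per peak (left, per 10 M tags, log axis) and peak width in bp (right, log axis) for 4 sets of female day 6 peaks. Circles are medians, thick bars span the middle 50% and thin lines the middle 80% of peaks. Late gains (median 16.0 normalized tags) sit above the day 6 only gains (9.14) and below the day 4 gains kept (43.1).

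At day 8 the partner peak of a late gain, the day 8 peak with the most shared bases, had a median of 9.82 normalized tags and 8.70 times the input. Over all autosomal day 8 peaks these medians were 10.3 normalized tags and 9.93 times the input. The median member was covered to 61.5% by day 8 peaks, and 13721 members (62.5%) were covered to at least 50%. Per kb of peak, the day 8 level was lower than the day 6 level by a median of 0.32 on the log2 scale, and 80% of members lay between -0.94 and 0.26. The share of tags in peaks was also lower at day 8 than at day 6 (25.9% against 47.3%), and its part in this difference was not tested. The partner was wider than the late gain in 6770 cases (30.8%), so the day 8 totals given for single regions below are over stretches of another width. Most members had a single day 8 partner (21032, or 95.8%). Of the day 8 peaks that overlapped a late gain, 1591 (7.03%) reached into a vehicle or day 4 peak elsewhere along their length.

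The 10 highest-scoring late gains included 6 whose center fell in a promoter, taken as the stretch from 1 kb upstream to 100 bp downstream of a transcript's start. The highest-scoring lay at Zfp458 (chr13:67268734-67269796), a zinc finger gene, with 73.8 normalized tags at day 6, 33.7 at day 8 and no vehicle or day 4 peak within 35.8 kb. Zfp2 (chr11:50915720-50917210) had 62.4 at day 6 and 32.0 at day 8, and Zfp661 (chr2:127584301-127585184) had 49.6 and 29.0. Zfp2 and Zfp661 were also listed in male vehicle, and Zfp458 and Zfp661 in male day 8. The promoter of Ncapg, a condensin subunit used in mitosis, had 73.5 normalized tags at day 6 and 25.7 at day 8. Plekhm3 had 63.4 and 28.0, and Prickle2, a planar cell polarity gene, had 66.0 and 9.57, the latter in a narrower partner.

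The other 4 of these 10 regions lay outside promoters. A region in an intron of Ppm1h, a protein phosphatase gene, had 65.0 normalized tags at day 6 and 18.6 at day 8. A region 1.51 kb before Mex3d, an RNA-binding protein gene, had 79.4 and 39.8 and was the one among these 10 that 3 male lists held. A region 2.81 kb before Gopc, a Golgi trafficking gene, had 33.6 and 26.9 and lay 36 bp from an earlier peak. The region at Ldah, a lipid droplet hydrolase gene, had 38.5 and 19.9, and its center fell in an exon 155 bp after the start of the gene. By the same ranking the next promoters were Cenpj, a centriole protein (38.9 at day 6, 22.9 at day 8), Tmem216, a cilium protein (42.1 and 34.2), Cers5, a ceramide synthase (79.4 and 31.0), and Gm7072 (65.0 and 30.5).

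The rule cuts through a continuous range of overlaps. The late gains with the least day 8 overlap shared 1 bp with a day 8 peak, nearest the starts of Sdk2, Nkx1-1 and Fis1, with 5.55, 7.51 and 10.4 normalized tags. The nearest regions outside the rule touched a day 8 peak without sharing a base, near Disp1, Gadd45g and Slc25a30, with 7.84, 8.16 and 13.4. On the other edge, 436 late gains lay within 100 bp of an earlier peak, and 483 day 6 peaks with a day 8 partner were left out for an overlap of under 100 bp with an earlier peak. The median distance from a late gain to the nearest vehicle or day 4 peak was 3.51 kb, and 4098 (18.7%) lay within 1 kb of one. The longest run of late gains, each within 5 kb of the next, had 9 over 28.4 kb of Ptprf, a receptor tyrosine phosphatase gene (chr4:118262531-118290906). The share of day 6 peaks that were late gains was similar along the genome, from 15.9% on chromosome 16 to 19.5% on chromosome 2.

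Most late gains, like most day 6 peaks, lay in gene bodies away from promoters. By peak center, 12684 (57.8%, interval 57.1 to 58.4%) were intronic, 5647 (25.7%) intergenic, 2286 (10.4%) exonic and 502 (2.29%) at transcript ends. The shares over all autosomal day 6 peaks were 54.1% intronic, 28.9% intergenic, 9.44% exonic and 2.07% at transcript ends. Promoters held 834 late gains (3.80%, interval 3.55 to 4.06%), against 5.43% of all autosomal day 6 peaks. With lists of equal length these shares were 7.93% and 10.6%, and the comparisons that follow use the full lists. The promoter share was 2.01 percentage points higher than in day 6 only gains (interval 1.74 to 2.29), which had 1.79%. Day 4 gains kept had 11.3% (difference -7.45 points, interval -7.99 to -6.93), and peaks shared with vehicle had 19.9% (difference -16.1, interval -16.9 to -15.4). Taken over all widths, the order of promoter share thus ran from day 6 only gains through late gains and day 4 gains to vehicle peaks. At exactly 500 bp this order did not hold, with 2.13% in late gains (interval 1.80 to 2.52%), 1.49% in day 6 only gains and 1.66% in day 4 gains kept (1.14 to 2.43%). At 1 to 2 kb the shares were 4.96%, 2.70% and 16.7%. Between 9.8 and 16 normalized tags late gains had the higher share, 2.90% (interval 2.49 to 3.37%) against 1.43% of day 4 gains kept (0.98 to 2.09%). Promoter late gains had more signal than intronic ones, with medians of 23.8 and 15.7 normalized tags and of 1104 and 813 bp. The promoter share also rose with width in late gains, from 2.13% at 500 bp to 5.22% over 2 kb.

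**Figure D2:**
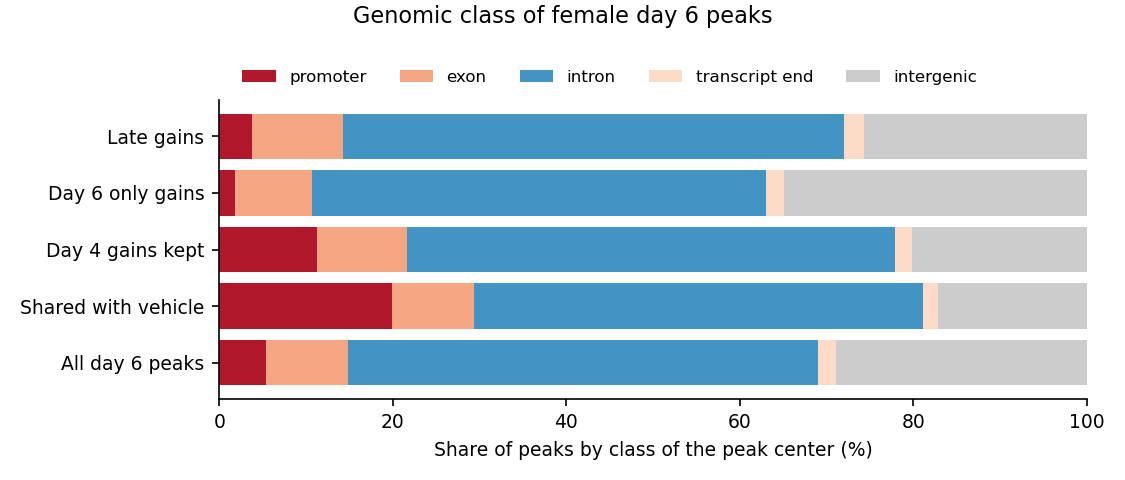
Share of peaks (%) in each genomic class, by peak center, for late gains, the 3 comparison sets and all autosomal female day 6 peaks. The promoter block is 3.80% wide for late gains, wider than for day 6 only gains (1.79%) and narrower than for peaks shared with vehicle (19.9%).

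Counted by gene, a late gain lay within the gene or within 10 kb of a start for 8312 of 20021 autosomal protein-coding genes (41.5%). The count was 3784 (18.9%) with lists of equal length and 4171 (20.8%) with the score floor of the earlier lists. Of the 8312 genes, 656 (7.89%) had no vehicle or day 4 peak by the same assignment, where 78.5% of all protein-coding genes had one. Late gains assigned to no gene numbered 5064 (23.1%). The share of genes with a late gain rose with gene length, from 27.5% under 10 kb to 41.2% at 10 to 30 kb, 52.3% at 30 to 100 kb and 66.2% over 100 kb. The genes with the most late gains were long. Rora, a clock nuclear receptor, had 31 among 120 day 6 peaks, Msi2, an RNA-binding protein, 29 among 104, and Prkce, a protein kinase C isoform, 28 among 98. Dst, a cytoskeletal linker, had 25 among 81, and Nav2 had 23 among 100.

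For 1370 genes (6.84%) a late gain reached the promoter window and no promoter window of the gene lay in a vehicle or day 4 peak. A day 8 peak also reached a promoter window for 1178 of them (86.0%), against 60.8% of all protein-coding genes. The rule requires each late gain to overlap a day 8 peak, so this share is largely set by the rule. Of the 1370 genes, 425 (31.0%, interval 28.6 to 33.5%) had a promoter in a male vehicle peak. Among treated males the counts were 82 (5.99%) on day 4, 34 (2.48%) on day 6 and 82 (5.99%) on day 8. Over all protein-coding genes, a promoter was listed for 50.3% of genes in male vehicle and for 28.0%, 28.9% and 32.9% on days 4, 6 and 8 in males. All protein-coding genes include those with a promoter in a female vehicle or day 4 peak, which the 1370 leave out by definition. The part of this in the lower male shares was not tested.

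The male lists were not used by the rule and give an independent readout of the same regions. A late gain overlapped a male vehicle peak in 6350 cases (28.9%, interval 28.3 to 29.5%), where all autosomal day 6 peaks did so at 30%. It overlapped a male day 4 peak in 3.18% of cases (all day 6 peaks, 8.22%), a male day 6 peak in 4.15% (11.6%) and a male day 8 peak in 2.56% (9.32%). The differences from the other day 6 peaks were -1.36 points for male vehicle (interval -2.02 to -0.69), -6.14 for male day 4 (-6.43 to -5.84), -9.04 for male day 6 (-9.37 to -8.70) and -8.26 for male day 8 (-8.54 to -7.97). The other peaks include those shared with vehicle, which the rule leaves out and of which 63.2% overlapped a male day 6 peak. Against day 6 only gains, late gains were higher by 2.12 points for male day 4 (interval 1.88 to 2.37), 3.22 for male day 6 (2.95 to 3.50) and 1.88 for male day 8 (1.67 to 2.10). With the score floor of the earlier lists applied, the male vehicle shares were 32.9% for late gains and 47.5% for all day 6 peaks. Late gains, like all day 6 peaks, were thus listed more often in the untreated than in the treated male lists. The male lists differ in length, with 87199 autosomal peaks in vehicle and 17339, 31982 and 20355 on days 4, 6 and 8, and the part of list length in this pattern was not tested.

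**Figure D3:**
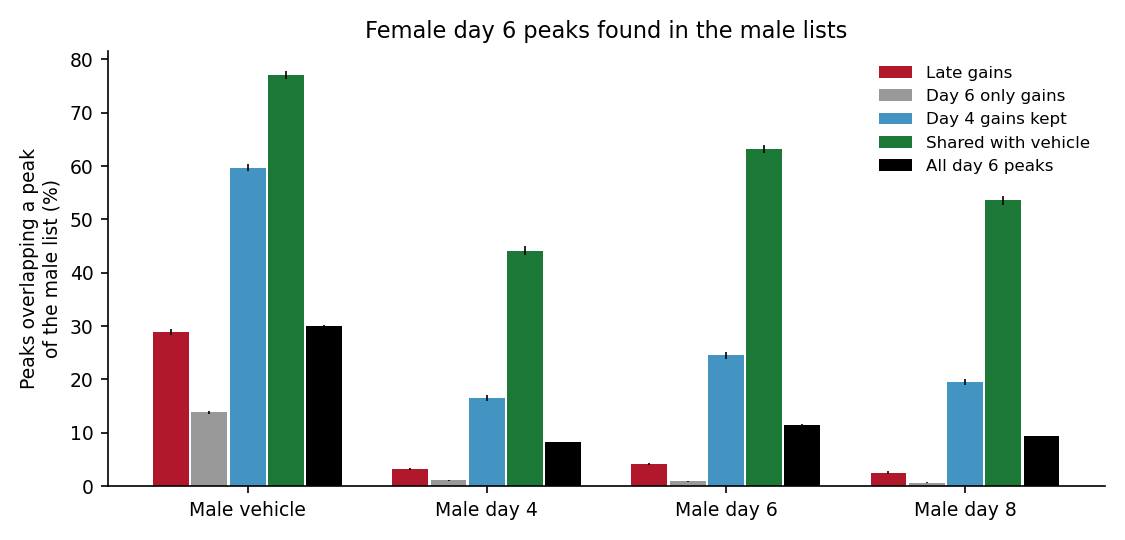
Share of female day 6 peaks (%) that overlap a peak of each male list by at least 1 bp, for late gains, the 3 comparison sets and all autosomal day 6 peaks. Error bars are 95% Wilson intervals. Late gains reach 28.9% in male vehicle and between 2.56% and 4.15% in the treated male lists.

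Among the sets, the male vehicle share of late gains was 15.1 points above that of day 6 only gains (13.8%, interval of the difference 14.4 to 15.7) and below that of day 4 gains kept (59.7%, difference -30.8, interval -31.7 to -29.9). Wider regions overlap more by construction, so the shares were also compared at matched width. At exactly 500 bp the male vehicle share was 15.4% in late gains, 10.1% in day 6 only gains and 18.4% in day 4 gains kept. At 1 to 2 kb it was 35.8%, 25.5% and 59.5%, and over 2 kb it was 54.8%, 41.0% and 79.8%. The order of the sets was the same at each width. By class, promoter late gains overlapped male vehicle in 34.3% of cases (interval 31.1 to 37.6%) and intergenic ones in 27.4% (26.3 to 28.6%).

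At least 1 male list held 7570 late gains (34.5%), close to the 34.7% of all day 6 peaks. Male vehicle and no treated male list held 5525 (25.2%, interval 24.6 to 25.7%), against 17.6% of all day 6 peaks. By set this share was 13.4% in day 6 only gains, 28.7% in day 4 gains kept and 10.8% in peaks shared with vehicle. All 4 male lists held 4957 of all day 6 peaks (4.08%), of which 4196 were shared with vehicle and so left out by the rule. These lists held 0 day 6 only gains and 5 late gains (0.023%). The 5 were the Vmp1 intron shown above (20.9 normalized tags at day 6, 57.2 at day 8), an intron of Arhgap31 (43.1 and 138.5), the promoter of Gm6712 (41.1 and 13.9), an intron of Cttnbp2nl (52.2 and 25.4) and a region 2.95 kb before Pi16 (65.6 and 43.1). At Vmp1 and Arhgap31 the day 8 partner was a wider peak than the late gain, so its tags cover more sequence.

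The same rule applied to the male lists found 761 late gains among 31982 autosomal day 6 peaks (2.38%, interval 2.22 to 2.55%). As a share of the day 6 peaks absent from vehicle and day 4, this was 3.80% in males and 25.5% in females, a difference of 21.7 points (interval 21.3 to 22.1). There were 26 male late gains that overlapped a female one, which is 3.42% of the male (interval 2.34 to 4.96%) and 0.118% of the female regions. Of all autosomal male day 6 peaks, 916 (2.86%) overlapped a female late gain, which lies within that interval. The male and female lists differ in length and in the share of tags in peaks, and these cannot be told apart from sex here.

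Sequence at the centers of late gains was rich in GC and poor in repeats. In 500 bp windows the mean GC content was 52.1%, as in all autosomal day 6 peaks (52.0%) and above 500 bp tiles over the autosomes (41.9%). Repeat-masked bases made up 12.9% of late gain windows, 16.8% of day 6 only windows and 33.5% of tiles. The mean number of CpGs was 9.29 in late gains, 8.01 in day 6 only gains, 14.1 in day 4 gains kept and 17.2 in peaks shared with vehicle. Within late gains, promoter windows held 23.0 CpGs and intronic windows 7.90.

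In the same windows, matches on either strand were counted for 14 motifs. The E-box CAGCTG, bound by myogenic factors such as MyoD and by other bHLH proteins, was found in 36.1% of late gains (interval 35.5 to 36.7%), 33.9% of all autosomal day 6 peaks and 17.3% of tiles. The difference from the other day 6 peaks was 2.73 points (interval 2.03 to 3.43). By GC content, the E-box shares in late gains and in the other peaks were 20.8% and 14.8% under 40% GC, 22.8% and 23.7% at 40 to 45%, 31.5% and 30% at 45 to 50%, 37.8% and 35.9% at 50 to 55%, and 41.5% and 36.6% from 55% up. Late gains were thus higher in 4 of the 5 GC bins and lower at 40 to 45%, although the intervals overlapped in each bin under 50% GC. Day 6 only gains had the E-box in 34.4% of windows, 1.74 points below late gains (interval of the difference 1.01 to 2.47). In the same GC bins, from the lowest up, day 6 only gains had 17.0%, 23.7%, 29.7%, 35.8% and 40.9%. The MEF2 consensus, bound by a family that drives muscle genes, was found in 155 late gains (0.71%, interval 0.60 to 0.83%), against 0.75% of all day 6 peaks and 1.09% of tiles. It was more frequent in day 4 gains kept (1.24%) and in peaks shared with vehicle (1.68%), with differences of -0.53 points (interval -0.73 to -0.34) and -0.97 points (-1.23 to -0.73) for late gains. It was less frequent in day 6 only gains (0.47%), which late gains exceeded by 0.24 points (interval 0.12 to 0.37). By GC content, the MEF2 shares in late gains and in day 4 gains kept were 1.34% and 2.22% at 40 to 45%, 1.04% and 1.80% at 45 to 50%, and 0.56% and 1.34% at 50 to 55%. The order turned at both ends, with 0.39% and 0.31% from 55% GC up and 3.33% and 0.52% under 40%, where late gains had 4 matches and day 4 gains kept had 1.

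Glucocorticoid receptor motifs were found in late gains at about the share of the other day 6 peaks. The short form ACANNNTGT was found in 13.9% of late gains, 13.9% of day 6 only gains, 13.7% of all day 6 peaks and 16.0% of tiles. The difference from the other day 6 peaks was 0.32 points (interval -0.18 to 0.83). The full GRE, AGAACA and TGTTCT with any 3 bases between them, was found in 2 late gains and in 20 of all day 6 peaks. Every full GRE match also holds a match to the short form.

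Motifs of CpG-rich promoters were rarer in late gains than in the peaks listed earlier. GGGCGGG, the SP and KLF box, was found in 8.15% of late gains, 15.1% of day 4 gains kept, 19.5% of peaks shared with vehicle, 9.06% of all day 6 peaks and 2.44% of tiles. The ETS motif CCGGAAGT was found in 0.92%, 2.05%, 3.23%, 1.22% and 0.32% of the same sets, and the NRF1 motif in 0.11%, 0.40%, 0.75%, 0.22% and 0.03%. The AP-1 motif TGAGTCA was found in 9.98% of late gains, 9.51% of all day 6 peaks and 7.76% of tiles. The remaining motifs lay within 0.5 points of all day 6 peaks, with late gain shares of 7.80% for MEF3 TCAGGTT (all peaks 7.74%, tiles 7.77%), 1.41% for ERR TCAAGGTCA (1.34%, 1.09%) and 7.08% for TEAD ACATTCC (6.75%, 6.74%). RUNX TGTGGTT was at 9.77% (9.98%, 11.4%), FOXO TGTTTAC at 5.34% (5.33%, 7.39%) and the estrogen response element at 0.10% (0.08%, 0.05%). A match is a string of letters and does not show that a factor was bound.

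**Figure D4:**
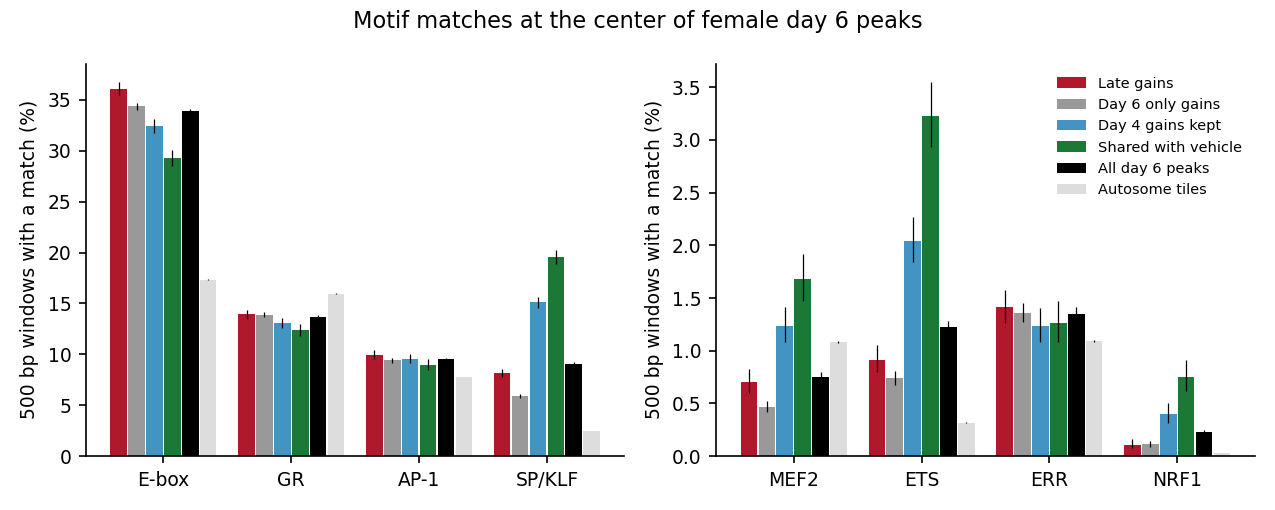
Share of 500 bp windows (%) with a match to each of 8 motifs, for late gains, the 3 comparison sets, all autosomal day 6 peaks and 500 bp tiles of the autosomes. Error bars are 95% Wilson intervals. The E-box share is 36.1% in late gains, and the MEF2 share of 0.71% lies below the 1.24% of day 4 gains kept.

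Genes were next grouped by their role in muscle, and the share with a late gain stands beside 41.5% of all protein-coding genes and the shares by gene length given above. A late gain needs a day 6 peak, which 81.4% of all protein-coding genes had. In the 7 lists by role every gene had one, apart from calcium handling, where 20 of 22 did. Late gains are also given as a share of the day 6 peaks at the same genes, which is 18.1% over all autosomal day 6 peaks. That 18.1% includes peaks assigned to no gene, which the list shares leave out. Late gains were more often intronic than all day 6 peaks (57.8% against 54.1%) and less often intergenic (25.7% against 28.9%). Of 45 genes of fatty acid uptake, oxidation and storage, 33 (73.3%) had a late gain, at a median gene length of 25.0 kb. Their 68 late gains were 20.2% of 336 day 6 peaks. Esrrb, a nuclear receptor of oxidative metabolism, had 6 among 23 day 6 peaks, Ppargc1b, a coactivator, 5 among 29, and Dgat2, a triglyceride synthase, 5 among 12. An intron of Ppargc1a, the coactivator that drives mitochondrial genes, had a late gain with 21.9 normalized tags at day 6 beside a wide day 8 partner with 92.2. An intron of Mgll, monoglyceride lipase, had 62.0 and 15.6. Cidea, a lipid droplet protein, had a late gain at its promoter and no promoter peak in vehicle or at day 4.

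Of 26 insulin, IGF1 and PI3K genes, 24 (92.3%) had a late gain, at a median length of 68.8 kb. Their 110 late gains were 27.4% of 402 day 6 peaks. Among receptors, Igf1r had 10 among 48 day 6 peaks and Insr 6 among 18. Among kinases and their partners, Pik3r1 had 11 among 27, Pik3ca 6 among 11, Mtor 10 among 29 and Rptor, the mTORC1 scaffold, 14 among 70. The transcription factor Foxo3, which the pathway restrains, had 10 among 27. An exonic late gain of Pik3r1 had 33.3 normalized tags at day 6 and 13.1 at day 8 and overlapped male vehicle and male day 4 peaks.

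Of 22 calcium handling genes, 12 (54.5%) had a late gain, at a median length of 34.9 kb, near the 52.3% of all genes of 30 to 100 kb. Their 40 late gains were 19.2% of 208 day 6 peaks. Ryr1, the release channel of the sarcoplasmic reticulum, had 10 among 36, and Cacna1h, a T-type calcium channel, had 7 among 19, of which 1 reached its promoter, although no day 8 peak did. Introns of Trdn, triadin, and Casq2, calsequestrin, had late gains with 18.6 and 23.8 normalized tags at day 6 and 8.56 and 8.31 at day 8. Of the 30 sarcomere and Z-disc genes, 17 (56.7%) had a late gain, at a median length of 21.7 kb, and late gains were 22.4% of their 259 day 6 peaks. Ttn, titin, had 17 among 53 day 6 peaks, Neb, nebulin, had 5 among 23, and Actn2, a Z-disc actinin, had 5 among 16. Myh2, the myosin of fast oxidative fibers, was the gene of this list whose promoter lay in a late gain and in no vehicle or day 4 peak. Of 22 myogenic regulators, 13 (59.1%) had a late gain, at a median length of 14.3 kb, and late gains were 16.2% of their 185 day 6 peaks. Tead1 had 12 among 48. An intron of Vgll2, a TEAD cofactor, had 17.0 normalized tags at day 6 beside a wide day 8 partner with 67.2.

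Of 25 glucocorticoid receptor targets, 13 (52.0%) had a late gain, at a median length of 12.9 kb, and late gains were 25.4% of their 213 day 6 peaks. Some of these genes also stand in other lists, among them Foxo3 (10 of the 54 late gains), Cacna1h (7), Foxo1 (4) and Angptl4 (2). Fkbp5, a chaperone of the receptor and a classic target, had 6 among 20 day 6 peaks. Its highest-scoring late gain, 46.5 kb after the start (chr17:28439206-28440122), had 31.7 normalized tags at day 6, 71.8 in a wider day 8 partner and no overlap in the male lists. Zbtb16 had 9 late gains among 31 day 6 peaks, and Per1, Klf15 and Pdk4, which are also classic targets, had none. Of 18 circadian clock genes, 10 (55.6%) had a late gain, at a median length of 28.0 kb, and late gains were 20.3% of their 237 day 6 peaks. An intron of Arntl, which encodes the clock activator BMAL1, had 29.7 normalized tags at day 6 and 29.2 at day 8. These 7 lists partly follow gene groups the study itself chose, so their counts are not independent evidence of a direction.

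Genes that mark other cell types of muscle carried late gains as well. Of 68 markers of endothelial, fibroblast, immune, satellite, adipocyte, Schwann and smooth muscle cells, 49 (72.1%) had a late gain, at a median length of 23.7 kb, against 41.5% of all protein-coding genes. A day 6 peak, which a late gain needs, was present at 81.4% of all protein-coding genes, and the markers without one are named below. The 68 markers held 133 late gains, 23.8% of their 559 day 6 peaks. Promoters of these 68 genes lay in a peak for 9 genes in vehicle (13.2%) and for 30 (44.1%), 48 (70.6%) and 47 (69.1%) on days 4, 6 and 8. All protein-coding genes gave 25.0%, 52.0%, 68.0% and 60.8%. The male lists held promoters of 30 of the 68 in vehicle and of 11, 11 and 9 on days 4, 6 and 8 (44.1%, 16.2%, 16.2% and 13.2%), where all protein-coding genes gave 50.3%, 28.0%, 28.9% and 32.9%. A late gain reached the promoter of 10 of the 68 with no vehicle or day 4 peak there, where 6.84% of all protein-coding genes met the same measure. The 10 are Emcn and Vwf (endothelium), Pi16 (fibroblasts), Laptm5 (immune cells), Sox10, Ngfr and Erbb3 (Schwann cells), and Myh11, Rgs5 and Notch3 (smooth muscle and pericytes). At Sox10 and Notch3 no day 8 peak reached the promoter itself, so the day 8 overlap lay elsewhere in the region. By list, smooth muscle and pericyte promoters were listed for 0, 2, 8 and 6 of 8 genes in vehicle and on days 4, 6 and 8. Macrophage and immune promoters were listed for 0, 2, 5 and 3 of 12, fibroblast promoters for 1, 6, 9 and 10 of 12, and endothelial promoters for 5, 10, 12 and 12 of 12.

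Schwann cell promoters were listed for 3, 4, 7 and 6 of 8 genes over the same 4 lists, satellite cell promoters for 0, 5, 5 and 6 of 8, and adipocyte promoters for 0, 1, 2 and 4 of 8. No day 6 peak was assigned to Ptprc, the pan-leukocyte CD45 gene, Adipoq, Retn or Lum. In the lists that hold these genes, 11 of 12 macrophage and immune, 11 of 12 fibroblast and 6 of 8 adipocyte genes had a day 6 peak. A missing peak does not show that a cell type was absent. At Emcn, an endothelial sialomucin, the late gain in an exon 230 bp after the start had 27.1 normalized tags at day 6 and 14.9 at day 8. At Tek, an endothelial receptor, an intronic late gain had 24.5 and 13.3, and at Dpt, a fibroblast matrix gene, one had 38.5 and 34.5. A larger share of such cells among the filtered fibers and more acetylation per cell cannot be told apart in bulk chromatin, and the part of these cells in the late gains was not tested.

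**Figure D5:**
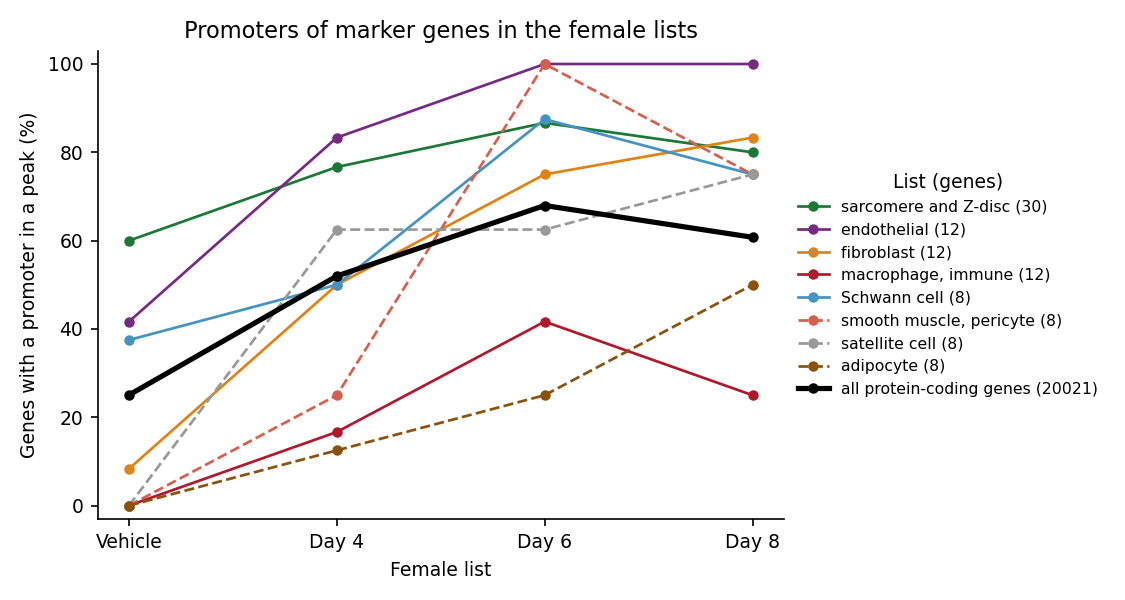
Share of genes (%) with a promoter in a peak of each female list, for the 7 lists of other cell types, the 30 sarcomere and Z-disc genes and all 20021 autosomal protein-coding genes. Smooth muscle and pericyte markers go from 0 of 8 genes in vehicle to 8 of 8 at day 6, where all genes go from 25.0% to 68.0%.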

How the data were processed

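The data are H3K27ac ChIP libraries, 2 per group, with matched input, from quadriceps myofibers of mice in 8 groups. According to the submitters' processing notes the tools were TopHat2 2.1.0, Bowtie2 2.2.6 and HOMER, with mm10 as the genome. Peaks were called by the authors with HOMER's histone style against input. Each group has 1 deposited list, and how its libraries were combined is not given in the sources used here. The deposited lists give normalized tag signal per 10 M tags, the caller's score, the ratio (fold) of ChIP to input tags and p-values, which were not used. Raw tag counts were deposited in the female day 6 and male day 4 lists, and elsewhere the authors scaled tags to the input depth. The deposited region sizes (another unit, bp) were used as widths.

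From these lists the overlaps, classes and shares were computed with scipy 1.17.1, pandas 2.3.3 and numpy 2.4.6 under Python 3.11.15, and figures were drawn with matplotlib 3.10.9. Overlap meant at least 1 bp. Depth was recovered from the steps of the normalized tags, all of which came out whole within rounding. Classes used curated RefSeq transcripts of GRCm38.p6 (45756) in the order promoter, transcript end (100 bp before to 1 kb after), exon, intron and intergenic. No listed peak passed a chromosome end of that build. Intervals are Wilson intervals for shares and Newcombe intervals for differences of shares, and they cover counting error only. Overlap and motif steps were tested on simulated data, and bedtools gave the same 21953 members.

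The members, gene lists and comparisons were chosen with earlier results of these data known. Regions were named by rank of the day 6 score: the 10 highest, the 10 highest promoters, up to 5 in all male lists, and up to 3 per gene list, of which the text gives a selection. The 5 genes with the most members were also named. For sequences, regions with under 100 bases outside annotated UTRs were passed over, which affected Zfp458. Regions on chromosome 18 were not used for sequences. Alternatives were a 50% coverage rule, lists of equal length, a 1 kb gap, a fold of at least 4, regions taken from day 8, other windows, nearest-start assignment and, chosen after seeing the data, a score floor. X-linked regions were not analysed here.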

Additional observations from a re-analysis of the deposited data

How the results depend on the processing

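The results are counts and shares with no test. Of 33 values under alternatives, 15 stayed within 1.5 times the count or within the interval of the share, and 18 did not. The number of late gains fell to 13721 with the 50% coverage rule, 5978 with lists of equal length and 7190 with the score floor, which was chosen after seeing the data. As shares of the peaks compared these were 11.3%, 15.9% and 21.3%, against 18.1% as reported. Genes with a late gain fell to 3784 with lists of equal length and 4171 with the score floor. The promoter share was 4.08% with the coverage rule, 7.93% with lists of equal length, 4.11% without earlier peaks within 1 kb, 4.40% at a fold of at least 4, 5.05% with the score floor and 12.2% within 2.5 kb of a start. In each of these 6 it stayed below that of all the peaks compared (5.43%, 10.6%, 5.43%, 7.05%, 11.0% and 15.3%). The male vehicle share was 26.8% with the coverage rule, 43.3% with lists of equal length, 30.9% at a fold of at least 4, 26.3% with regions from day 8 and 32.9% with the score floor, against 30%, 47.9%, 35.3%, 35.7% and 47.5% of all the peaks compared. It stayed below all peaks in each of these 5, and the gap was wider than as reported (28.9% against 30%). Without earlier peaks within 1 kb the male vehicle share was 29.2% against 30%, a narrower gap than as reported. The MEF2 share was 0.84% with lists of equal length and 1.58% over whole peaks. It lay below the share of all peaks compared in each alternative except the coverage rule (0.76% against 0.75%). Fewer peaks enter the shorter lists, and beyond that the cause was not tested. No paired analysis was possible because each group has 1 list for both of its libraries, and for the same reason neither library could be left out. The median late gain rests on 49 tags, and a missing peak is not a level of 0.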

Other observations

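Among the 1370 genes with a promoter in a late gain and in no vehicle or day 4 peak, 37 carry zinc finger protein names (2.70%, interval 1.97 to 3.70%), a group picked after 3 of the highest-scoring late gains were seen to lie at such genes. The share was 2.65% among the genes with any promoter in a day 6 peak and 2.07% among all protein-coding genes, and both values lie within that interval.

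Late gains with a MEF2 match overlapped a male vehicle peak in 36.8% of 155 regions (interval 29.6 to 44.6%), against 28.9% of the 21798 regions without one (interval 28.3 to 29.5%). Of 6 motifs looked at in this way, the SP and KLF box also marked a higher share, 33.1% of 1790 regions (interval 30.9 to 35.3%) against 28.6% (27.9 to 29.2%). Late gains with the SP and KLF box were also wider, with a median of 1053 bp against 805 bp. They lay more often in promoters, at 16.5% against 2.67%. The intervals with and without a match overlapped for the E-box, the short glucocorticoid receptor motif and AP-1, and the full GRE had 2 regions.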
